A study of Homo sapiens with 2 samples.

Results

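The interferon response and antigen presentation genes are a set of 45 human genes, fixed by name, that covers interferon receptors, the kinases and transcription factors behind them, genes induced by interferon, and the machinery that loads peptides on class I major histocompatibility molecules. A gene was counted as found where a line of the deposited table carried exactly its symbol. Of the 45 genes, 39 had such a line, among 12936 named genes in all. Another 4 were listed only in loci that name several genes, and DHX58 and MX1 had no line in the values used here. The data are RNA-seq values, in RPKM (read numbers divided by transcript length and by library size), of 2 libraries from A549, an established line of human lung adenocarcinoma cells. One library comes from cells labelled as a MYOCD knockdown and 1 from cells labelled wild type. Cells of both groups grew in DMEM with serum. The labels give doxycycline for 72 h for both samples. The series text says of the wild type that it had no treatment, so if those cells had no doxycycline, its effect and that of the knockdown cannot be told apart. The title of the knockdown sample also reads MYOCD-/-, and no source used here tells how the gene was knocked down. With 1 library a group there is no replicate error, nothing was tested, and each difference below compares these 2 libraries only.

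Cells sense interferon through paired receptor chains that activate Janus kinases. These phosphorylate STAT proteins, which join IRF9 or each other and bind short DNA words near interferon-stimulated genes. The induced genes include antiviral effectors, the RNA sensors that lead to more interferon, and the class I presentation pathway, in which the immunoproteasome cuts proteins, the TAP transporter moves the peptides into the endoplasmic reticulum, and tapasin helps to load them on HLA molecules bound to B2M. Epithelial cells carry most of this machinery at rest and raise it when infected.

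The word GAAANNGAA, a core of the interferon-stimulated response element, was present in many of the promoters of the set. A RefSeq promoter (GRCh38.p14, 250 bases before to 50 after the start) was matched for 37 of the 45 genes, and 18 of them (48.6%) held the word on either strand, against 8.11% of all 35116 promoters of that length and 6.1% of the 9219 promoters of genes that averaged 1 RPKM or more. The 37 include genes that had no line, shared a locus or averaged under 1 RPKM. Of the genes of the set at 1 RPKM or more with a matched promoter, 13 held the word and 16 did not. The word TTCNNNGAA, a core of the gamma-activated site, stood in 7 of the 37 (18.9%), against 7.66% of all promoters. Where these words overlap each other, each was counted. The 6 windows below run from 180 bases before to 20 after the start and are shown because they hold the word in genes that were higher in the knockdown library (IFIT1, IFIT3, IFIT5 and TAP1, of which IFIT1 and TAP1 were lower once the libraries were scaled to equal summed RPKM) and in genes that were lower there (IFITM3 and IFI27). Capitals mark both words. They lie at chr10:89392443-89392642 (plus strand) for IFIT1, chr10:89327817-89328016 (plus) for IFIT3, chr10:89414388-89414587 (plus) for IFIT5, chr6:32853685-32853884 (minus) for TAP1, chr11:320841-321040 (minus) for IFITM3 and chr14:94110556-94110755 (plus) for IFI27.
IFIT1: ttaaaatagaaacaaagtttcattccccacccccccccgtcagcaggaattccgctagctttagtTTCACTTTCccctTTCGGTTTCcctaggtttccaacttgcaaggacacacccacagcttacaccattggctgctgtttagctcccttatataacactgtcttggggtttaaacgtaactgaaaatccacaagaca
IFIT3: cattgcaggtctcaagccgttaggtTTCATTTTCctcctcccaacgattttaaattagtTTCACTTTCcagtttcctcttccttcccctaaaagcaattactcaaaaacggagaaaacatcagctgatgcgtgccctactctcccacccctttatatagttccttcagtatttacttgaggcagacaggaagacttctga
IFIT5: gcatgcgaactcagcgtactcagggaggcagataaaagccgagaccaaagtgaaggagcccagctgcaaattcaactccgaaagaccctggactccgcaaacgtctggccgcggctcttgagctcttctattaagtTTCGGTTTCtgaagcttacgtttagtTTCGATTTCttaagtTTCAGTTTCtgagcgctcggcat
TAP1: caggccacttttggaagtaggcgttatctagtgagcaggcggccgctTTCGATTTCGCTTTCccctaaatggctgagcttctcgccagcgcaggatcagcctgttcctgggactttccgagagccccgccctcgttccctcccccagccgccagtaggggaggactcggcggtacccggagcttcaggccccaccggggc
IFITM3: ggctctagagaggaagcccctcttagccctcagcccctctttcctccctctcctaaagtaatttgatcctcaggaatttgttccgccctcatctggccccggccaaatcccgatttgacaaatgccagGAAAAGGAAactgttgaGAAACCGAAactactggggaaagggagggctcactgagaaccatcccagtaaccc
IFI27: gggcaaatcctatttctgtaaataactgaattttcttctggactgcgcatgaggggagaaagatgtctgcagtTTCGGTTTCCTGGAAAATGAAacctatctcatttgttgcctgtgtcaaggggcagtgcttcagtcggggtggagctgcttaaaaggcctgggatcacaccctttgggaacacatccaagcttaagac

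In IFIT1 and IFIT3 the words lie in pairs, each word beginning more than 100 bases before the start, and in IFIT5 the 3 copies lie within 44 bases of it. TAP1 and PSMB9 are neighbours read in opposite directions, with RefSeq starts 488 bases apart, and the TAP1 words start 133 and 127 bases before its start, between both genes. IFI27 holds 2 copies of the first word and 1 of the second, which overlap.

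The levels of the set differed little between the libraries. Of the 39 genes with a line, 35 averaged 1 RPKM or more over the libraries. Differences are log2 ratios of knockdown over wild type after adding a pseudocount of 1 RPKM to each, a scale that shrinks those of low genes. On that scale none of the 35 was 1.5-fold higher and none 1.5-fold lower in the knockdown library, while on RPKM without a pseudocount, a setting added after the values were seen, 2 were 1.5-fold lower (IFITM3 and IFI27) and 0 higher, against 5.35% and 2.99% of all genes. Over all 12158 named genes past that minimum, 1.65% were 1.5-fold higher and 3.2% were 1.5-fold lower. None of the 35 differed 2-fold, against 1.37% of all genes. With a 1.3-fold rule, added after the values were seen, 1 gene of the 35 was higher (PSMB8) and 5 were lower (IFITM3, HLA-E, IFI27, OAS1 and ISG20), against 5.36% and 7.94% of all genes. IFI27 had 0.741 RPKM in the knockdown and passed the minimum mean only through its wild type value, which favoured its direction. The median log2 change was -0.03 over the 35 genes and 0.01 over all genes. Of the 35, 17 were above 0 and 18 below, and 52.1% of all genes were above 0. With both libraries scaled to equal summed RPKM over all loci, 8 were above 0 and 27 below, and the median of all genes was -0.17. A change of under 0.2 on the log2 scale was seen in 19 of the 35 (54.3%) and in 61.3% of all genes. All 35 changes lay inside the central 95% of the changes of all genes, from -0.64 to 0.51.

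**Figure D1:**
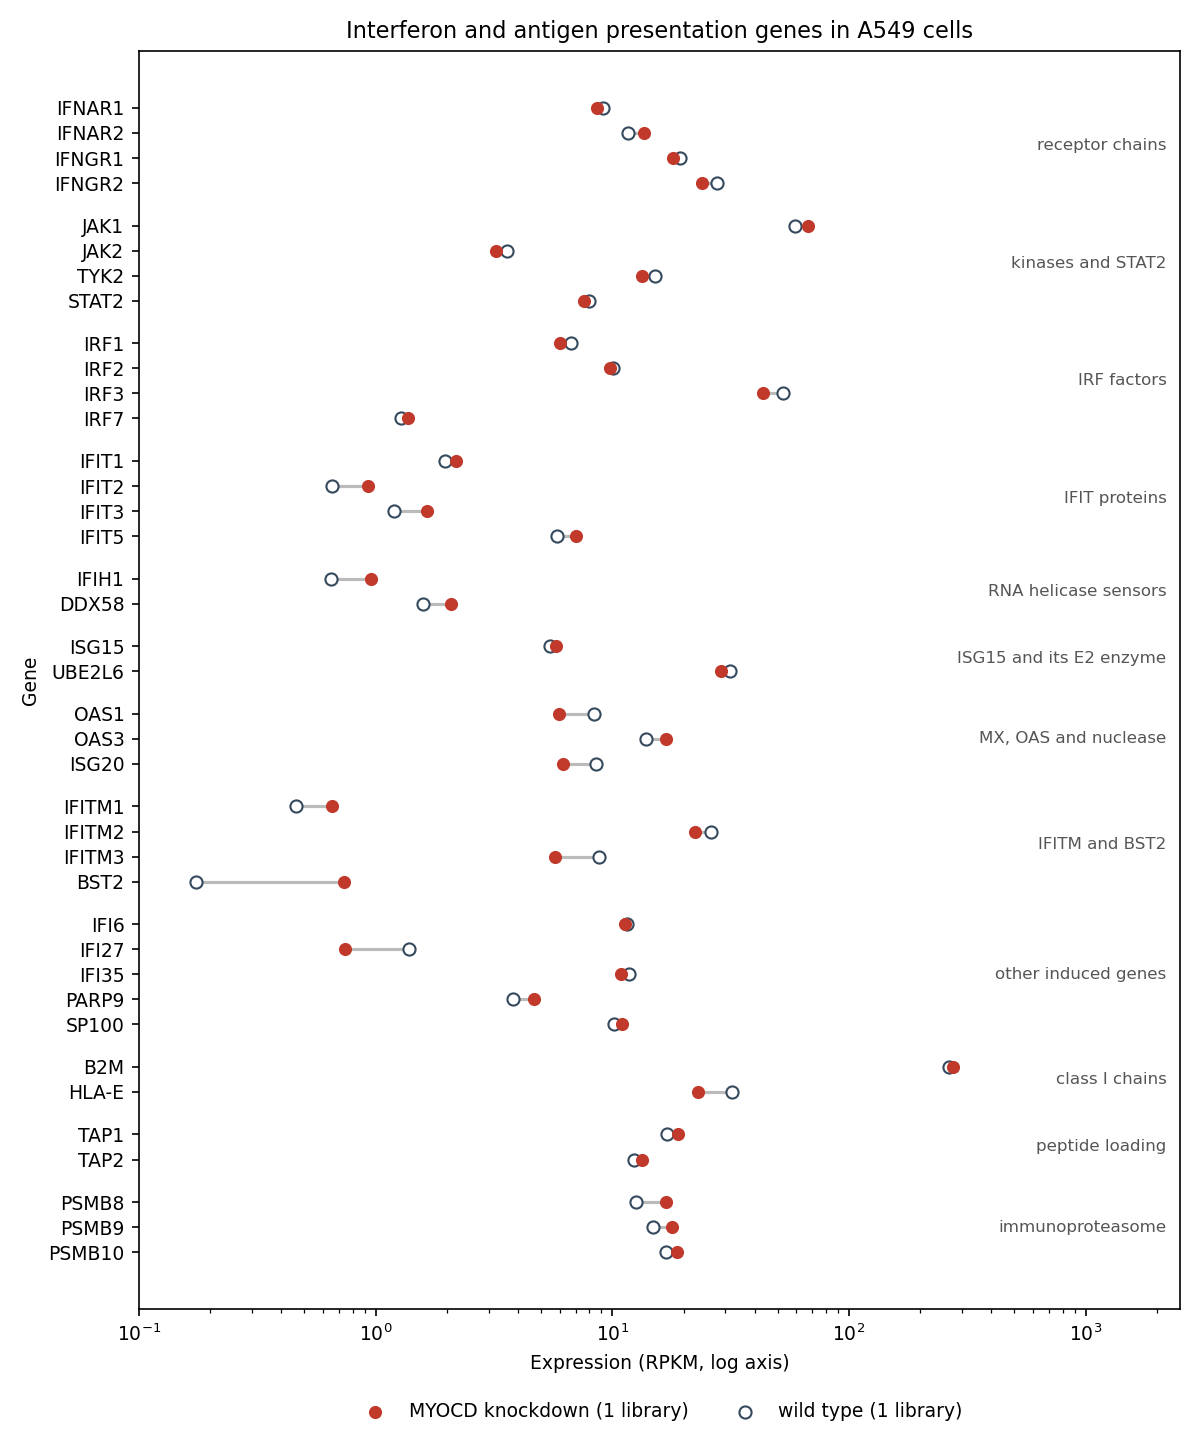
Expression of the 39 genes with a line of their own, in RPKM on a log axis, grouped by role: filled points are the MYOCD knockdown library and open points the wild type library, joined by a line. Most pairs nearly touch, B2M stands highest at 274 RPKM in the knockdown and 266 RPKM in wild type, and the widest gap is that of BST2, with 0.737 RPKM in the knockdown and 0.175 RPKM in the wild type library. The values of BST2 rest on few reads, and it has a line only through the knockdown library, which fixed its direction.

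All 5 epithelial markers had a line. The keratin gene KRT8 had 1520 RPKM in the knockdown and 1550 RPKM in wild type, and KRT18 had 1680 RPKM in the knockdown, against 1780 RPKM in the wild type library. CDH1 had 22.5 RPKM in the knockdown and 23.8 RPKM in wild type, KRT19 7.69 RPKM in the knockdown and 7.70 RPKM in wild type, and EPCAM 2.15 RPKM in the knockdown and 2.24 RPKM in wild type. Of 10 leukocyte markers, ITGAM and CD14 had a line, with summed levels of 4.26 RPKM in the knockdown and 3.69 RPKM in wild type, and PTPRC, the pan-leukocyte marker, had none. Of 6 fibroblast markers COL1A1 alone had one, at 2.41 RPKM in the knockdown and 2.76 RPKM in wild type, and the 5 endothelial markers had none. The part of such cells in the results was not tested, and in bulk RNA fewer cells of a type and less RNA per cell cannot be told apart. MYOCD, the gene for the smooth muscle coactivator myocardin, had 0.400 RPKM in the knockdown and 0.881 RPKM in the wild type library. The depth of the libraries is unknown. In every locus the higher library reached at least 0.652 RPKM, and IFITM1 is the gene that sits at that edge, so genes near it are listed only if 1 library reaches it. The knockdown value of MYOCD is under that edge. MYOCD thus has a line only through the wild type library, which fixed its direction. In GENCODE release 29, 18 of the 39 genes share exonic bases with another annotated gene, and none of the 39 holds a microRNA or small nucleolar RNA gene on its own strand.

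The receptor chains were all present at moderate levels. IFNAR1, the chain of the type I receptor that binds TYK2, had 8.62 RPKM in the knockdown and 9.18 RPKM in the wild type library. IFNAR2, its high-affinity partner, had 13.6 RPKM in the knockdown and 11.7 RPKM in the wild type library. The ratio of IFNAR2 to IFNAR1 was 1.58 in the knockdown and 1.27 in the wild type library. IFNGR1, the ligand-binding chain of the interferon gamma receptor, had 18.1 RPKM in the knockdown, against 19.4 RPKM in wild type. IFNGR2, the signalling chain, had 23.9 RPKM in the knockdown and 27.8 RPKM in the wild type library. IFNAR2 was thus the 1 chain of 4 that was higher, by a log2 change of 0.21, and IFNGR2 was the lowest, at -0.21. IFNAR1, IFNAR2 and IFNGR2 lie together on chromosome 21.

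Among the kinases, JAK1 was far the most abundant. JAK1, which serves both receptors, had 67.3 RPKM in the knockdown and 59.3 RPKM in the wild type library. JAK2, the partner of IFNGR2, had 3.24 RPKM in the knockdown and 3.60 RPKM in wild type, and TYK2 had 13.3 RPKM in the knockdown and 15.1 RPKM in the wild type library. STAT2, which joins IRF9 in the factor that binds the response element, had 7.58 RPKM in the knockdown and 7.98 RPKM in the wild type library. The log2 change was 0.18 for JAK1 and lay between -0.17 and -0.07 for the other 3 genes of the set in this group. With equal summed RPKM, JAK1 turned to -0.02.

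Of the interferon regulatory factors, IRF3 was the most abundant and had the widest difference. IRF3, the factor that switches on interferon genes after RNA or DNA sensing, had 43.2 RPKM in the knockdown and 52.5 RPKM in the wild type library, a log2 change of -0.28. Its exons overlap those of BCL2L12, read in the opposite direction, which had 39.5 RPKM in the knockdown and 45.8 RPKM in the wild type library. How the authors' counting treated strand is not given, so reads of such overlapping genes cannot be told apart. IRF1, an early target of interferon signalling, had 6.04 RPKM in the knockdown and 6.71 RPKM in wild type, and IRF2, its antagonist, had 9.82 RPKM in the knockdown and 10.1 RPKM in the wild type library. IRF7, which amplifies the type I response, was low at 1.37 RPKM in the knockdown and 1.28 RPKM in the wild type library. IRF9 was listed only with RNF31, a locus with 15.4 RPKM in the knockdown and 18.5 RPKM in the wild type library.

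The IFIT genes, which bind foreign RNA and lie in a cluster on chromosome 10, were all 4 higher in the knockdown library, except that IFIT1 turned to -0.03 on the log2 scale with equal summed RPKM. IFIT1 had 2.18 RPKM in the knockdown and 1.96 RPKM in wild type, and IFIT2 had 0.932 RPKM in the knockdown and 0.653 RPKM in the wild type library. IFIT3 had 1.65 RPKM in the knockdown and 1.20 RPKM in wild type, and IFIT5, the most abundant of them, had 7.05 RPKM in the knockdown and 5.85 RPKM in the wild type library. The log2 changes ran from 0.10 for IFIT1 to 0.27 for IFIT3, under the 1.3-fold line. IFIT2 had a mean under 1 RPKM, and its exons overlap LIPA on the other strand, which had 49.0 RPKM in the knockdown and 38.0 RPKM in the wild type library. Of the RNA helicase sensors DHX58 had no line, and DDX58 and IFIH1 stood the same way. DDX58, the sensor RIG-I, had 2.09 RPKM in the knockdown and 1.59 RPKM in the wild type library. IFIH1, the sensor MDA5, had 0.959 RPKM in the knockdown and 0.647 RPKM in the wild type library. Its mean was under 1 RPKM, and its wild type value is under the edge of 0.652 RPKM. It thus has a line only through the knockdown library, which fixed its direction.

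The antiviral enzymes stood on both sides of 0. OAS1 and OAS3 make the oligoadenylate that activates RNase L, and they are neighbours on chromosome 12. OAS1 had 5.97 RPKM in the knockdown and 8.39 RPKM in the wild type library, while OAS3 had 16.9 RPKM in the knockdown and 13.9 RPKM in the wild type library. Their log2 changes were -0.43 and 0.26, so the ratio of OAS3 to OAS1 was 2.83 in the knockdown and 1.66 in the wild type library. The exons of OAS1 overlap those of AC004551.1, an antisense gene, so the limit on strand given for IRF3 holds for OAS1 and this ratio. ISG20, an exonuclease that degrades RNA, had 6.20 RPKM in the knockdown and 8.55 RPKM in the wild type library, a log2 change of -0.41. ISG15, the ubiquitin-like modifier, had 5.77 RPKM in the knockdown and 5.48 RPKM in the wild type library. UBE2L6, the enzyme that conjugates it, had 28.9 RPKM in the knockdown and 31.4 RPKM in the wild type library.

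With a pseudocount of 1, IFITM3 of the membrane restriction factors had the largest difference of the 35 genes, while with a pseudocount of 0.1 that of IFI27 was larger. IFITM3, which blocks the fusion of viruses in endosomes, had 5.73 RPKM in the knockdown and 8.83 RPKM in the wild type library, 65.0% of the wild type level and a log2 change of -0.55. The GENCODE release 29 annotation of IFITM3 on GRCh38 spans chr11:319669-327537 (minus), and its exons overlap those of AC136475.5 on the other strand. The limit on strand given for IRF3 thus holds for IFITM3. IFITM2, its close copy, had 22.4 RPKM in the knockdown and 26.2 RPKM in the wild type library. These copies are so alike that reads may be split between them, so the values of each are uncertain, and both were lower. IFITM1 had 0.652 RPKM in the knockdown and 0.463 RPKM in the wild type library. BST2, the protein tetherin that holds budding viruses at the cell surface, had 0.737 RPKM in the knockdown and 0.175 RPKM in the wild type library. With the longest annotated coding transcript of BST2, 1019 bases, these levels would stand for 0.751 reads per 1000000 mapped reads in the knockdown and 0.178 in the wild type library, so they rest on few reads. The fold change of BST2 is therefore not given. The wild type values of IFITM1 and BST2 are under the edge of 0.652 RPKM, so both have a line only through the knockdown library.

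Other induced genes stood on both sides. IFI27, a mitochondrial protein, had 0.741 RPKM in the knockdown and 1.39 RPKM in the wild type library, 53.4% of the wild type level, which by its longest transcript would be 0.537 reads per 1000000 mapped reads in the knockdown and 1.01 in the wild type library. Its mean of 1.06 RPKM passed the minimum only through the wild type library, which favoured its direction. IFI6, which has a role at the endoplasmic reticulum and in mitochondria, was nearly equal at 11.3 RPKM in the knockdown and 11.5 RPKM in the wild type library. IFI35 had 10.9 RPKM in the knockdown and 11.8 RPKM in the wild type library. SP100, a component of nuclear bodies, had 11.0 RPKM in the knockdown and 10.2 RPKM in the wild type library. PARP9 had 4.67 RPKM in the knockdown and 3.81 RPKM in the wild type library. DTX3L, the ubiquitin ligase that pairs with PARP9 and overlaps its exons on the other strand, had 6.46 RPKM in the knockdown and 3.49 RPKM in the wild type library, a log2 change of 0.73.

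**Figure D2:**
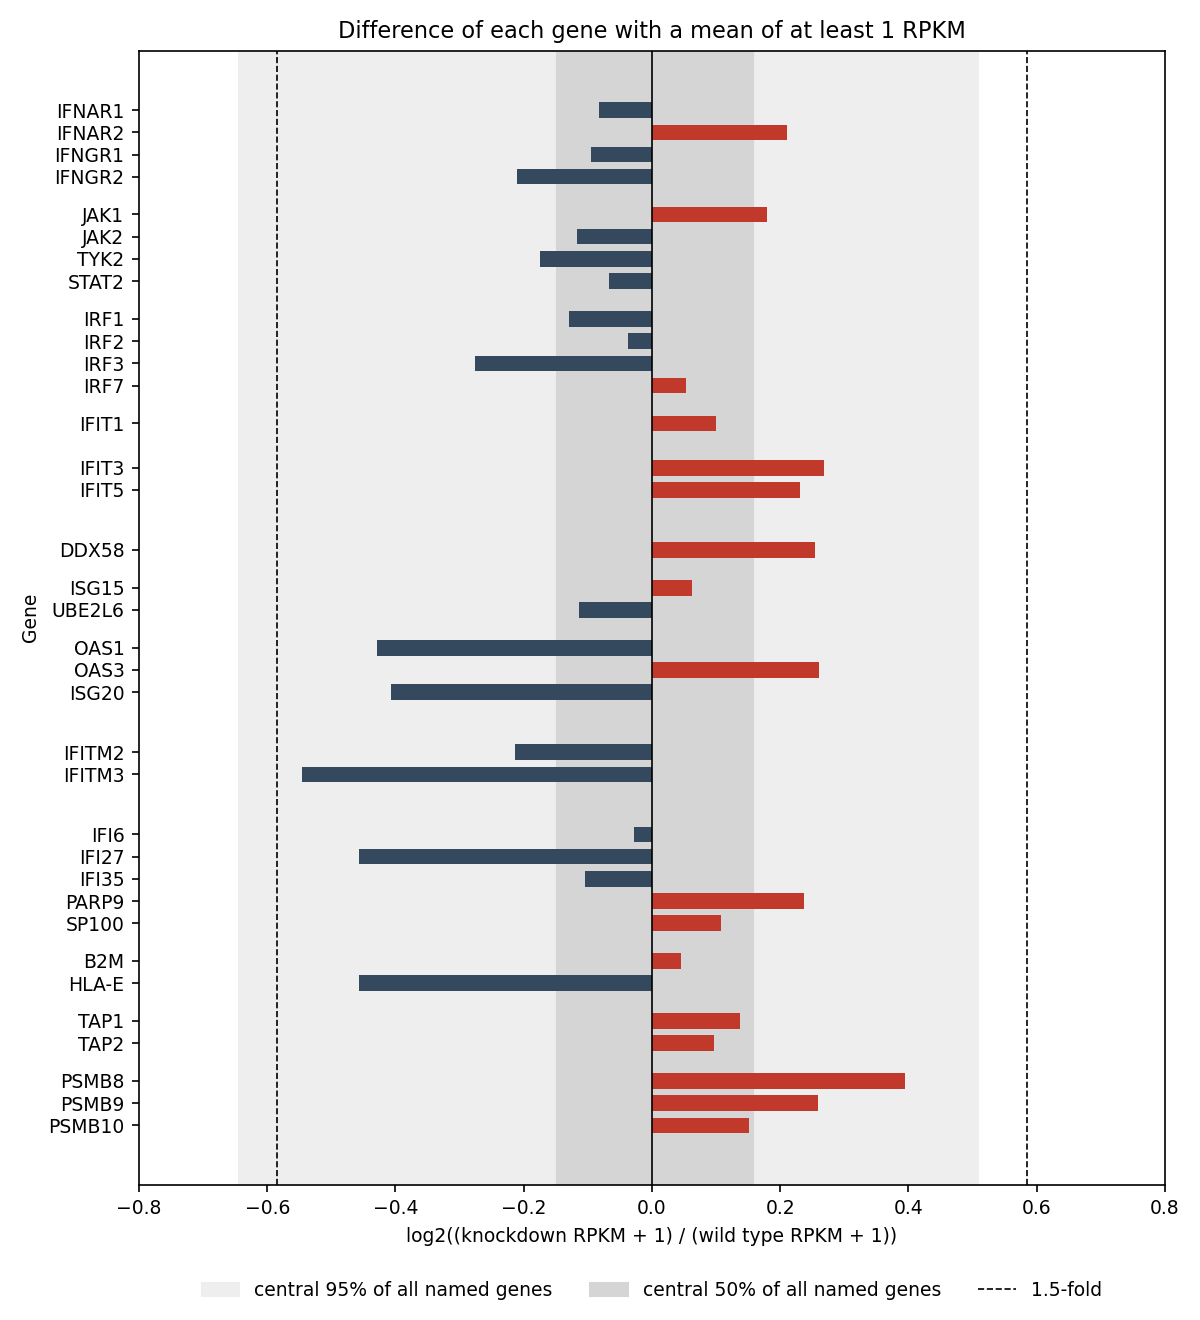
Log2 change of the 35 genes that averaged 1 RPKM or more, knockdown over wild type with a pseudocount of 1, in role order: bars to the right (red) are higher and bars to the left (blue) lower in the knockdown library. No bar reaches the dashed 1.5-fold lines, and all lie inside the shaded central 95% of 12158 named genes. With equal summed RPKM, 9 bars would change side (JAK1, IRF7, IFIT1, ISG15, SP100, B2M, TAP1, TAP2 and PSMB10).

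In the presentation pathway, B2M was nearly equal in both libraries and HLA-E was lower in the knockdown library. B2M, the invariant light chain, had 274 RPKM in the knockdown and 266 RPKM in the wild type library. It ranked 288 among the named genes of the knockdown library and 276 among those of the wild type library. HLA-E, a class I molecule that is read by natural killer cells (chr6:30489467-30494205, plus), had 23.1 RPKM in the knockdown and 32.1 RPKM in the wild type library, 72.0% of the wild type level and a log2 change of -0.46. HLA-B and HLA-C share 1 locus in the table, with 30.3 RPKM in the knockdown and 36.3 RPKM in wild type, and that value belongs to neither gene alone. The HLA genes are near-identical in part and highly variable between people, so each of these values is uncertain. The ratio of B2M to HLA-E was 11.9 in the knockdown and 8.28 in the wild type library.

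The genes for peptide supply stood slightly higher in the knockdown library, except that TAP1, TAP2 and PSMB10 turned to the other side with equal summed RPKM. TAP1 and TAP2, the paired chains of the peptide transporter, had 18.9 and 13.4 RPKM in the knockdown library, and 17.1 and 12.4 RPKM in the wild type library. Their log2 changes were 0.14 and 0.10, or -0.05 and -0.09 with equal summed RPKM. TAPBP, which encodes tapasin, was listed only with RGL2 and ZBTB22, at 49.7 RPKM in the knockdown and 47.3 RPKM in the wild type library. PSMB8, an immunoproteasome subunit (chr6:32840717-32844703, minus), had 16.9 RPKM in the knockdown and 12.6 RPKM in the wild type library, the highest log2 change of the 35 genes at 0.40 with a pseudocount of 1. With a pseudocount of 0.1 IFIT3 was higher, at 0.43, and PSMB8 had 0.42. PSMB9 had 17.9 RPKM in the knockdown and 14.8 RPKM in wild type, and PSMB10 had 18.7 RPKM in the knockdown and 16.8 RPKM in the wild type library. Their log2 changes were 0.26 and 0.15, and PSMB10 had -0.04 with equal summed RPKM. The exons of PSMB8 and PSMB9 overlap on opposite strands, so reads in the overlap may have counted for both.

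Each immunoproteasome subunit replaces a constitutive one, and the ratio of such a pair within a library does not depend on how the libraries are scaled. PSMB8 over PSMB5 was 0.0908 in the knockdown and 0.0687 in the wild type library. PSMB9 over PSMB6 was 0.0775 in the knockdown and 0.0573 in the wild type library, and PSMB10 over PSMB7 was 0.127 in the knockdown and 0.111 in the wild type library. All 3 ratios were higher in the knockdown library. The constitutive subunits stood at 148 to 259 RPKM in these libraries, so they dominated in both.

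**Figure D3:**
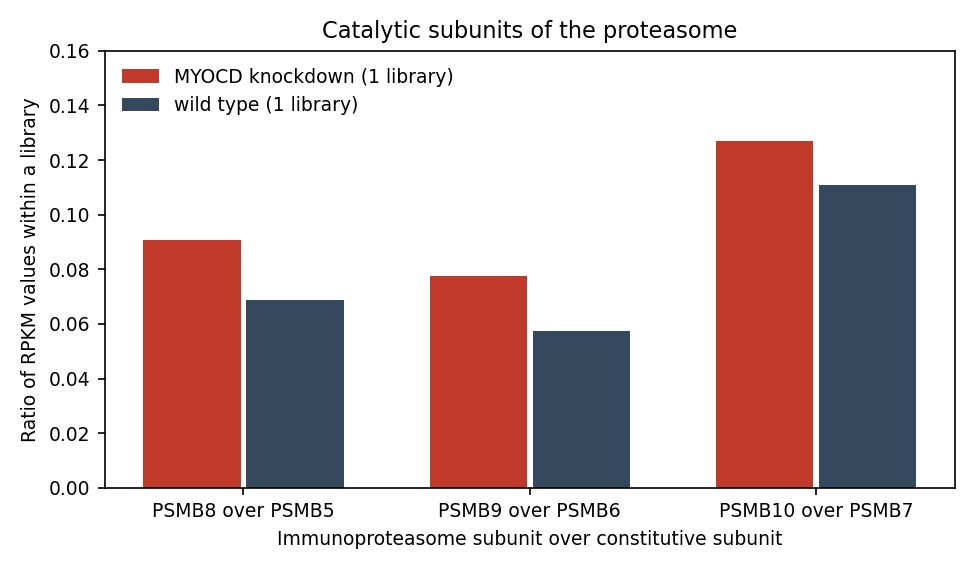
Ratio of the RPKM of each immunoproteasome subunit to that of the constitutive subunit it replaces, with the knockdown library (red) beside the wild type library (blue), 1 library each and no error. All ratios are under 0.13, and each is higher in the knockdown library.

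The genes with the response element word and those without it both lay on either side of 0. Among the genes that averaged 1 RPKM or more and had a matched promoter, 13 held GAAANNGAA, of which 9 were above 0 and 4 below, with a median log2 change of 0.10. Without the word there were 16, of which 6 were above and 10 below, with a median of -0.09. Over all genes 52.1% were above 0, with a median of 0.01. With equal summed RPKM the medians of the 2 groups were -0.09 and -0.26, when that of all genes was -0.17. In both settings 9 of the 13 and 6 of the 16 were above the median of all genes. The difference between these groups was not tested, and of the 5 genes that were 1.3-fold lower 4 had a matched promoter, of which 3 hold the word (IFITM3, IFI27 and ISG20). IFI27 passed the minimum mean only through its wild type value.

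Other genes of the pathway were read from 8 lists with 143 genes, of which 91 had a line and 81 averaged 1 RPKM or more. Of these 81, 1 was 1.5-fold higher (DTX3L) and 1 was 1.5-fold lower (HLA-DMB), against 1.65% and 3.2% of all genes. HLA-DMB, which helps to load class II molecules, had 1.42 RPKM in the knockdown and 3.66 RPKM in the wild type library. With the 1.3-fold rule 8 of the 81 were higher and 4 lower, against 5.36% and 7.94% of all genes. With equal summed RPKM 2 were higher and 9 lower by that rule, against 2.03% and 18.9% of all genes. The median log2 change was 0.06 over the 81 genes, and 0.01 over all genes.

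Further interferon-stimulated genes made up most of those 8. Of 55 listed, 33 had a line and 28 averaged 1 RPKM or more. Of the 28, 21 were above 0 and 7 below, and 6 were 1.3-fold higher (21.4%, against 5.36% of all genes) and 1 was lower, while with equal summed RPKM 12 were above 0, 16 below, 2 were 1.3-fold higher and 3 lower, against 2.03% and 18.9% of all genes. Before that scaling 52.1% of all genes were above 0. The median of the 28 was 0.13. With equal summed RPKM it was -0.04, when the median of all genes was -0.17. In both settings 19 of the 28 were above the median of all genes. SAMD9, an antiviral factor, had 1.95 RPKM in the knockdown and 1.04 RPKM in the wild type library. TRIM21, an antibody receptor in the cytosol, had 7.88 RPKM in the knockdown and 5.38 RPKM in wild type, and ZC3HAV1, which binds viral RNA, had 18 RPKM in the knockdown and 12.6 RPKM in the wild type library. The other genes above the 1.3-fold line were TRIM5, DDX60L and DTX3L. SHISA5 was the lowest, at 53.9 RPKM in the knockdown and 70.9 RPKM in wild type, and C19orf66 followed, with a log2 change of -0.32. Sharply induced genes such as MX2, OAS2, RSAD2, IFI44L and CXCL10 had no line in the values used here.

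**Figure D4:**
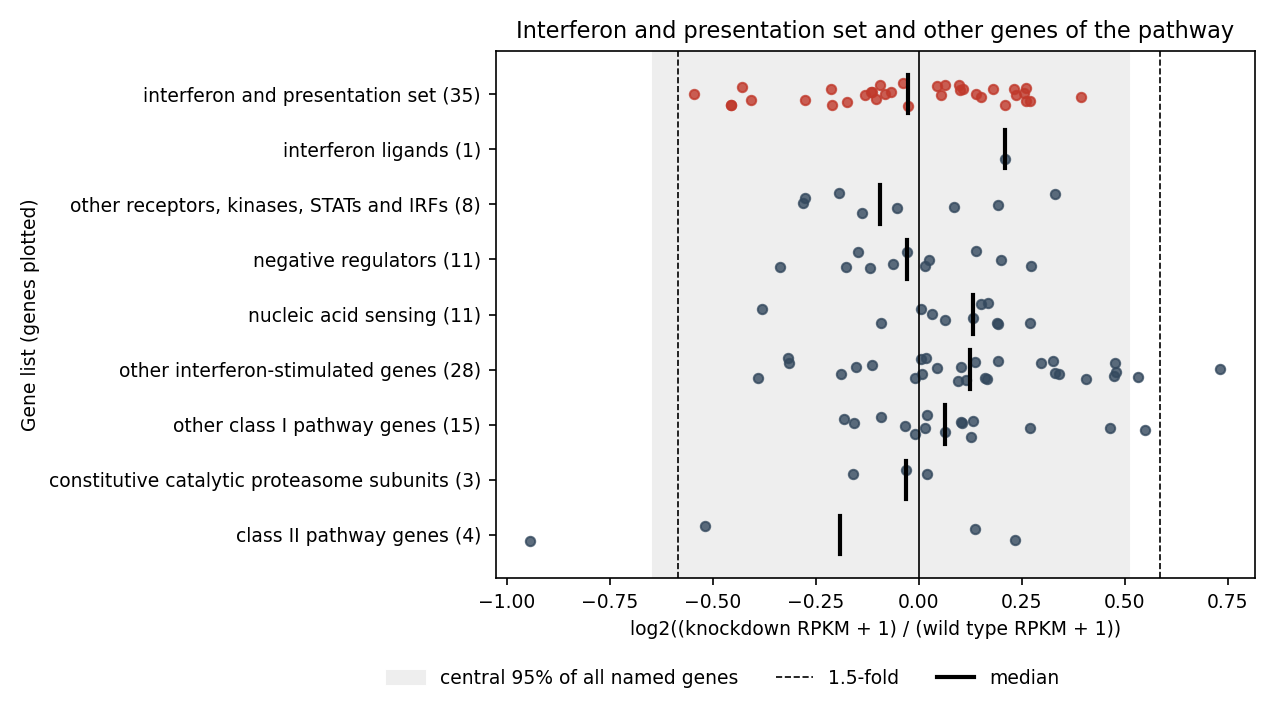
Log2 change, knockdown over wild type with a pseudocount of 1, of the 35 genes of the set (red) and of the other pathway genes (blue) in 8 lists, each point 1 gene that averaged 1 RPKM or more and each black line a list's median. The set is centred at -0.03, and the further interferon-stimulated genes at 0.13. With equal summed RPKM these medians were -0.21 and -0.04, when the median of all genes was -0.17.

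The remaining lists held few differences past 1.3-fold. Of 9 interferon ligand genes IFNE alone had a line, at 1.56 RPKM in the knockdown and 1.21 RPKM in the wild type library. Of 8 further receptors, kinases, STATs and IRFs, STAT3 was the highest at 54.7 RPKM in the knockdown and 43.3 RPKM in the wild type library, followed by IL10RB, with a log2 change of 0.19, while IRF5 had a log2 change of -0.28. Among 11 negative regulators the phosphatase gene PTPN1 was the highest, at 0.27, followed by USP18, which removes ISG15 from proteins, at 0.20. PIAS3 was the lowest, at -0.34, and the phosphatase gene PTPN6 followed at -0.18. Among 11 nucleic acid sensing genes 9 were above 0, against 52.1% of all genes. With equal summed RPKM 2 were above 0, when the median of all genes was -0.17. In both settings 8 of the 11 were above the median of all genes. The highest were TRIM25, a ubiquitin ligase that acts on RIG-I, at 0.27, and MB21D1, the DNA sensor cGAS, at 0.19. TICAM1 was the lowest, at -0.38, and IKBKE followed at -0.09.

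Of 15 further class I genes 10 were above 0, against 52.1% of all genes. With equal summed RPKM 3 were above 0, when the median of all genes was -0.17. Above the median of all genes were 10 of the 15 as reported and 8 with equal summed RPKM. ERAP1, which trims peptides in the endoplasmic reticulum, had 10.7 RPKM in the knockdown and 7.01 RPKM in the wild type library, a log2 change of 0.55. RFXAP, a subunit of the factor that binds HLA promoters, followed at 0.46, at a level of 1.53 RPKM in the knockdown and 0.837 RPKM in the wild type library. RFXAP, counted above as 1.3-fold higher, passed the minimum mean only through its knockdown value, which favoured its direction. HLA-F had a log2 change of -0.16. The constitutive subunits had log2 changes of 0.02 (PSMB5), -0.03 (PSMB7) and -0.16 (PSMB6). Of 13 class II genes 4 had a line, and CIITA, CD74 and HLA-DRA had none. IFI30, a lysosomal reductase, had 18.6 RPKM in the knockdown and 27.1 RPKM in the wild type library. CTSS and HLA-DMA had log2 changes of 0.23 and 0.14.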

How the data were processed

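The deposited values are RPKM, which the authors computed before deposit, with 1 column per library. Per the submitters' processing notes, the tools were TopHat2 2.0.10 and Cufflinks 2.2.1. The notes list GRCh38.p12 next to BDGP5, a build of the fruit fly genome, and give no role for any of these. Annotation, filters and use of strand are not given. Without read counts the depth of each library is unknown, and no interval was computed.

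Of 14952 loci, 1909 had no gene name and were left out. Values of the 102 names on several lines were summed. Genes averaging 1 RPKM or more were described by log2((knockdown + 1) / (wild type + 1)) and by 1.5-fold and 2-fold size rules. With 1 library per group, no test was made. The genes of the set and the lists were chosen with earlier results of these data known. The genes to be named were all 45 of the set and, of each list, the 2 highest and 2 lowest changes and every gene past 1.5-fold, except that some of them are not reported here. Further genes, such as those past 1.3-fold, were named after their values were seen. Gene positions, transcript lengths and exon overlaps came from GENCODE release 29 on GRCh38, and promoter sequences from RefSeq on GRCh38.p14. The authors' loci may have other boundaries. Reads per 1000000 mapped reads were estimated as RPKM times the length of the longest coding transcript. Python 3.11.15, numpy 2.4.6, pandas 2.3.3 and matplotlib 3.10.9 were used. The size rule was run on simulated data, with planted changes far larger than those of the set and low genes left out. That run does not show how the rule acts at the sizes and levels seen here.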

Additional observations from a re-analysis of the deposited data

How the results depend on the processing

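No paired analysis was possible because each group has 1 library. The count of 0 genes of the set that were 1.5-fold higher held under all 9 alternatives (2 pseudocounts, 2 filters, 3 scalings, single lines and added loci), as did the count of 0 that differed 2-fold. A pseudocount of 5, a mean of at least 5 RPKM and single lines could not have raised either count. Equal summed RPKM and equal 75th percentiles lower the knockdown values, so they could not have raised the first count. With no filter BST2 entered, and the pseudocount of 1 kept it under 1.5-fold. No filter was not combined with a lower pseudocount. The count that were 1.5-fold lower became 2 with a pseudocount of 0.1 (IFI27 and IFITM3, against 5.06% of all genes) and 3 with equal summed RPKM (HLA-E, IFITM3 and OAS1, against 6.47%), and was 0 in the other 7. It was 2 with no pseudocount, added after seeing the data. With the 1.3-fold rule, chosen after seeing the data, it was 5, with 1 higher. A rule of 25%, also chosen after seeing the data, was used before it and replaced for a reason of number format. It gave the same 5 lower genes and the same 1 higher gene, against 10.6% lower and 7.99% higher among all genes. By it 9 of the 28 further interferon-stimulated genes were higher (32.1%) and 1 lower, where the 1.3-fold rule gave 6 (21.4%) and 1. The median log2 change of the set was -0.0271 as reported, -0.0205 with a pseudocount of 5, -0.0196 with equal medians, -0.0516 with a mean of at least 5 RPKM, -0.0621 with equal 75th percentiles, -0.209 with equal summed RPKM and 0.0539 with no filter, when the 4 genes under 1 RPKM, all higher in the knockdown library, enter. Of those 4 genes, IFIH1, IFITM1 and BST2 had wild type values under the edge of 0.652 RPKM. They have a line only through the knockdown library, which fixed their direction. IFIT2 had 0.653 RPKM in wild type, just over that edge. IFI27, counted among the lower genes, passed the minimum mean only through its wild type value, which favoured its direction. Equal summed RPKM lowers every log2 ratio by 0.20 before the pseudocount. The loci with a gene name sum to 592270 RPKM in the knockdown and 589490 RPKM in wild type. The 1909 loci with no gene name sum to 580732 RPKM in the knockdown and 432397 RPKM in the wild type library, so nearly all of that factor comes from loci not analysed here.

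For the other pathway genes, the count of 1.5-fold higher genes was 1 as reported, 4 with a pseudocount of 0.1, 0 with a pseudocount of 5, with a minimum mean of 5 RPKM and with equal summed RPKM, 8 with the 1.3-fold rule and 12 with the 25% rule. The count of 1.5-fold lower genes was 1 as reported, 0 with a pseudocount of 5 and with a mean of at least 5 RPKM, 2 with equal summed RPKM, 4 with the 1.3-fold rule and 5 with the 25% rule. The word GAANNGAA, tried in place of GAAANNGAA, has its GAA repeats 2 bases apart, against 3 bases in the main word, and stood in 12 of 37 promoters of the set (32.4%), against 19% of all promoters. The cause of these shifts was not tested. Genes under 1 RPKM rest on few reads, and without counts or replicates a difference of the size seen in this set cannot be set against an error.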
